A study of Mus musculus with 2 samples.

Results

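The data described here concern 10 genes of maturing neutrophils in 2 acute promyelocytic leukaemias of the mouse, named APL#1 and APL#2. The genes were chosen by name, for proteins of the secondary (specific) granules and for the abundant cytosolic proteins S100A8 and S100A9. Each of the 10 names matched 1 of the 23235 gene rows of the deposited table, and 9 of the 10 had a mean level of at least 1 FPKM over both libraries, as did 4100 genes in all. FPKM is a fragment number scaled to the length of the transcript and to the size of the library, so levels of different genes can be compared per length.

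Each leukaemia was represented by 1 RNA library, and the series text calls them clones with unlike frequencies of leukaemia-initiating cells, those that can start the disease in a new host. Both libraries carried the labels PML-RAR KI (genotype), mCG-PML-RAR transgenic (source), C57BL/6-Ly5.2 (strain), 10 weeks (age) and untreated. The labels do not spell out the letters mCG, nor the letters VEH in both sample titles. Leukaemic cells from 1 mouse per leukaemia were transplanted into CD45.1+ recipients that had not been irradiated, 2000000 cells for APL#1 and 200000 for APL#2, and CD45.2+ cells were purified from spleen on immunomagnetic columns. With 1 library each there was no replicate, and no test of any difference was run here. Leukaemia, cell dose, recipient and library cannot be told apart in any difference reported here.

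Neutrophils fill their granules in sequence as they mature. Primary granules, with myeloperoxidase and elastase, form in promyelocytes, the stage at which acute promyelocytic leukaemia accumulates. Secondary granules, with lactoferrin, cathelicidin and lipocalin 2, form in the next stages, myelocytes and metamyelocytes, and the transcription factor C/EBP epsilon is required for them. S100A8 and S100A9 form the heterodimer calprotectin, which binds calcium, zinc and manganese and makes up a large part of the cytosol of mature neutrophils.

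The 10 genes did not differ between the leukaemias in 1 direction. S100a8 and S100a9, the most abundant members in APL#1, were 2.93-fold and 2.56-fold higher there than in APL#2. Camp and Ngp, cathelicidin-related granule genes, were 1.56-fold and 1.31-fold higher in APL#2. Hp, Lcn2 and Ltf were higher in APL#1, Olfm4 was higher in APL#2, Pglyrp1 was close to equal and Mmp8 was near 0 in both.

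**Figure D1:**
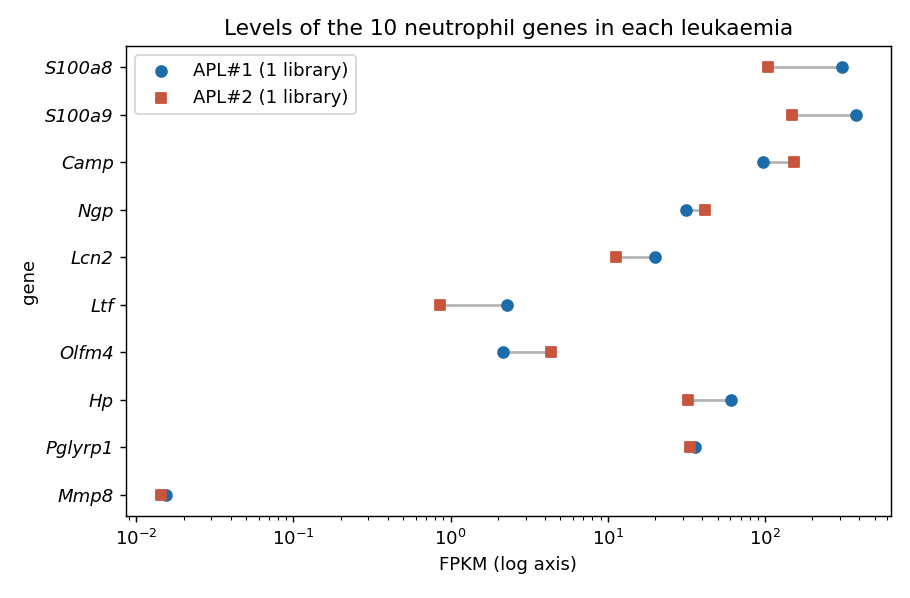
FPKM of each gene on a log axis, with a circle for the APL#1 library and a square for the APL#2 library, joined by a line; there are no error bars because each leukaemia has 1 library. S100a9 leads in APL#1 at 378.8 FPKM and Camp in APL#2 at 152.5 FPKM, and Mmp8 lies near 0.015 FPKM in both.

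Markers of stage and of cell type were looked up. The promyelocyte list held Mpo, Elane, Prtn3, Ctsg, Ms4a3, Kit, Cd34 and Ptprc. All 8 were above 1 FPKM in both libraries, led by Mpo, myeloperoxidase, at 661.8 FPKM in APL#1 and 157.3 FPKM in APL#2. Ptprc encodes CD45, on which the cells were purified, so its presence says nothing of the stage. The list is therefore not a test of stage. Of 8 markers of mature neutrophils, 7 were in the table; Csf3r, the receptor for granulocyte colony-stimulating factor, stood at 11.9 and 11.8 FPKM, and the other 6 were at or below 0.346 FPKM in both libraries, with Fpr1 and Stfa2 listed at 0 in both. In each library 7 of the 10 members stood above 10 FPKM, as did 408 of all genes in APL#1 and 369 in APL#2. Monocytes also make S100A8 and S100A9. The 9 macrophage and monocyte markers in the table summed to 230.1 FPKM in APL#1 and 140.0 FPKM in APL#2. Nearly all of it was Ly6c2 (224.2 and 130.5), which has a near-identical neighbour gene. Vcam1 (3.94 and 7.47) and Cd68 (1.54 and 1.01) were the others above 1 FPKM. The remaining 6 of the 9 were under 1 FPKM in both, none of them at 0 in both. Among these 6, Emr1 (0.0230 and 0.537 FPKM), Ccr2 (0.160 and 0.253), Csf1r (0.0667 and 0.101) and C1qc (0 and 0.0761) were higher in APL#2. C1qa (0.0597 and 0.0552) and C1qb (0.0408 and 0.0189) were not. Values as close to 0 as those of the C1q genes rest on few fragments. The 5 B cell and 6 T cell markers in the table summed to at most 0.404 FPKM in either library. The 6 erythroid markers summed to 0.0213 FPKM in APL#1 and 0 FPKM in APL#2. Of 5 basophil and mast cell markers in the table, 3 had a mean of at least 1 FPKM. Of these 3, 2 were at least 2-fold lower in APL#2, beside 2.44% of the 4100 genes, and 1 was at least 2-fold higher, beside 2.1%. Cpa3, mast cell carboxypeptidase (41.3 and 7.09 FPKM), and Hdc, which makes histamine (7.75 and 1.24), were higher in APL#1, and the basophil protease gene Mcpt8 (1.02 and 8.04) was higher in APL#2. The 5 summed to 50.2 and 16.5 FPKM, with Fcer1a listed at 0 in both. In the lists of NK cells, platelets, plasma cells and endothelium or stroma, 1 gene each reached a mean of 1 FPKM: Nkg7 (37.3 and 26.7 FPKM), Itga2b (2.34 and 3.95), Xbp1 (6.49 and 5.66) and Pecam1 (3.62 and 1.62), all under 2-fold on the log2(FPKM + 1) scale. No dendritic cell or eosinophil marker did. The part of such cells in the differences was not tested, and in bulk RNA fewer cells of a type and less RNA per cell cannot be told apart.

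Depth was read from the steps between low values: a single fragment on 1 kb of transcript came to about 0.0194 FPKM in APL#1 and to 0.0180 FPKM in APL#2. The size of this step rested on 16 of 38 low genes with 1 known transcript. On this estimate, and with the length of each gene's longest coding transcript, the 7 most abundant members rested on at least 578 fragments in each library, with a counting error of at most 4.16%. Counting error is therefore small beside most differences below, but it does not include the variation between animals or between libraries.

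S100a8 and S100a9 lie side by side on mouse chromosome 3 (mm9, 90472992 to 90473956 and 90496554 to 90499613 in the deposited table), with starts 23.6 kb apart and no other listed gene between them or overlapping them. S100a8 stood at 309.0 FPKM in APL#1 and 105.3 FPKM in APL#2, a difference of -1.54 on the log2(FPKM + 1) scale (APL#2 minus APL#1). S100a9 stood at 378.8 and 148.1 FPKM, a difference of -1.35. The ratio of S100a9 to S100a8 was 1.23 in APL#1 and 1.41 in APL#2, so the partners of the heterodimer stayed close to each other in level while both were lower in APL#2. In APL#1, S100a9 ranked 9 and S100a8 14 among all genes of the library, and in APL#2 they ranked 33 and 42. Together they made up 2.31% of the summed FPKM of all genes other than small RNA genes in APL#1, and 0.901% in APL#2.

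The 250 bases before the start of this neighbouring pair are shown because both genes were lower in the same library. They come from RefSeq on build GRCm38.p6 (chr3:90668821-90669070, plus strand, and chr3:90695722-90695971, minus strand), which is not the build of the deposited table. Capitals mark matches to a C/EBP motif, TTGCNNAA, or to the core bound by ETS factors such as PU.1, GAGGAA, on either strand.
S100a8: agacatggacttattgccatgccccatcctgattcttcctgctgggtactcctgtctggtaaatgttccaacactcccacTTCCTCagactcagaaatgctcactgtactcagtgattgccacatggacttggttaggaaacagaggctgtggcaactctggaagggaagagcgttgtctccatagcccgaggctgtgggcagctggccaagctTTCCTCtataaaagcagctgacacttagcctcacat
S100a9: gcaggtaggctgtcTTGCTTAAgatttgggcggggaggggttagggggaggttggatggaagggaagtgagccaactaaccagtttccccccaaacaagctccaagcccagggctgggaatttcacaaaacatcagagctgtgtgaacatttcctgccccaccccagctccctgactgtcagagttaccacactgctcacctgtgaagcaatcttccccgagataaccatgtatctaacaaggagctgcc
S100a8 held the PU.1 core at 170 and 36 bases before its start, both on the opposite strand, and S100a9 held a C/EBP match at 236 bases. No match of the other motif lay in either window.

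Other S100 genes of the same chromosome went both ways. The table lists 14 S100a genes on chromosome 3, of which 8 had a mean of at least 1 FPKM and 4 were listed at 0 in both libraries. S100a6, which encodes calcyclin and starts 56.2 kb from S100a8, stood at 4.58 FPKM in APL#1 and 14.6 FPKM in APL#2. S100a4, linked to cell motility, stood at 0.237 and 2.46 FPKM, and S100a10, the partner of annexin A2, at 1.33 and 3.44. These 3 lay above the median difference of all genes, and the other 5 (S100a8, S100a9, S100a1, S100a11 and S100a13) lay below it. S100a4 reached the mean of 1 FPKM through its level in APL#2. S100a11 was the most abundant S100 gene after the calprotectin pair, at 31.2 and 25.5 FPKM. S100a7a, between S100a6 and S100a8, was listed at 0 and 0.0301 FPKM.

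**Figure D2:**
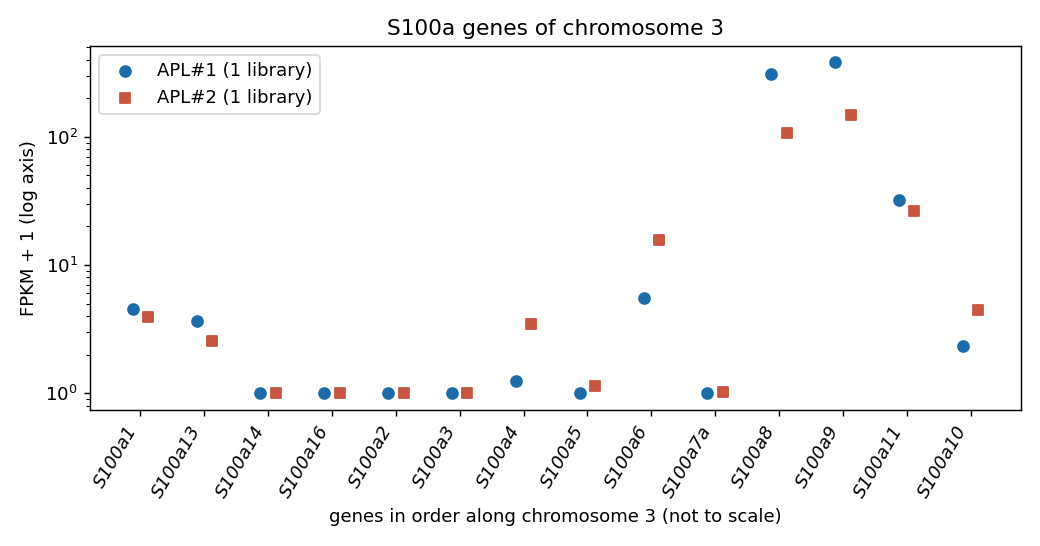
FPKM + 1 on a log axis for the 14 S100a genes of chromosome 3 in their order along the chromosome, not to scale, with a circle for APL#1 and a square for APL#2 (1 library each). S100a4, S100a6 and S100a10 are higher in APL#2, whereas S100a8 and S100a9 are higher in APL#1.

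Camp encodes cathelicidin, an antimicrobial peptide precursor, and Ngp encodes neutrophilic granule protein, whose sequence is related to the propeptide of cathelicidins. Camp (mm9 chromosome 9, 109749890 to 109751970) stood at 97.5 FPKM in APL#1 and 152.5 FPKM in APL#2, a log2 difference of 0.64. Ngp (110322311 to 110325516) stood at 31.7 and 41.7 FPKM, a difference of 0.38. Both were higher in APL#2, and Camp was 3.08 times Ngp in APL#1 and 3.66 times Ngp in APL#2. Camp ranked 43 among all genes in APL#1 and 30 in APL#2, and Ngp 149 and 109.

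The corresponding windows of Camp and Ngp (GRCm38.p6, chr9:109849457-109849706, minus strand, and chr9:110419558-110419807, plus strand) are shown because these genes leaned toward the other leukaemia. Capitals mark the same motifs.
Camp: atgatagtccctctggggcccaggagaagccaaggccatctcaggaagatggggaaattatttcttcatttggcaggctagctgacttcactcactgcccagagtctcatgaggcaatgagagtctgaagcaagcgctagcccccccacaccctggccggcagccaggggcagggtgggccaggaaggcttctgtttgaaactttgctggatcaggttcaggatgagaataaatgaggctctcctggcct
Ngp: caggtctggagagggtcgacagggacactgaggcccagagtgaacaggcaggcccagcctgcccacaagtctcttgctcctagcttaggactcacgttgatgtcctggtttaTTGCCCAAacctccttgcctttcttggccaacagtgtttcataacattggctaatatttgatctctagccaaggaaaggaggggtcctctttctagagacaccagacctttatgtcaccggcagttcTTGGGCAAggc
Ngp held C/EBP matches at 138 and 11 bases before its start, and neither motif matched in the Camp window. Across members, 9 of the 10 had a promoter in the RefSeq table, Hp being the one without an entry. The C/EBP motif was found in 5 of the 9 (Lcn2, Ltf, Mmp8, Ngp and S100a9), beside 9.56% of 32851 windows of the same length. The PU.1 core was found in 6 of the 9 (Lcn2, Ltf, Mmp8, Olfm4, Pglyrp1 and S100a8), beside 23.3% of windows. Members higher in APL#1 and members higher in APL#2 are in both groups, and a match is a description of letters and not a binding site.

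Ltf encodes lactoferrin, the iron-binding protein that defines secondary granules, and it lies on chromosome 9 too (110921795 to 110945270). It stood at 2.29 FPKM in APL#1 and 0.860 FPKM in APL#2, from about 323 and 131 fragments. The plain ratio was 2.66 in favour of APL#1, whereas the log2(FPKM + 1) difference was -0.82, because a pseudocount of 1 reduces the difference of low genes. Ltf therefore pointed the other way from Camp and Ngp, although it starts only 599.5 kb from Ngp. The ratio of Camp to Ltf was 42.6 in APL#1 and 177.3 in APL#2. Between Camp and Ltf the table lists 28 other genes, of which 3 had a mean of at least 1 FPKM (Cdc25a, Scap and Ccdc12), with differences from -0.12 to -0.01.

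Lcn2 encodes lipocalin 2, which binds the iron-carrying siderophores of bacteria. It stood at 20.1 FPKM in APL#1 and 11.4 FPKM in APL#2 (mm9 chromosome 2, 32240156 to 32243259), a plain ratio of 1.77 and a log2 difference of -0.77. Hp encodes haptoglobin, which binds free haemoglobin and is stored in secondary granules. It stood at 61.2 and 32.3 FPKM (chromosome 8, 112099027 to 112103072), a ratio of 1.89 and a difference of -0.90.

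Olfm4 encodes olfactomedin 4, a glycoprotein found in the secondary granules of a subset of neutrophils. It stood at 2.16 FPKM in APL#1 and 4.37 FPKM in APL#2 (chromosome 14, 80400108 to 80421737), from about 310 and 680 fragments. The plain ratio was 2.03 in favour of APL#2, and the log2(FPKM + 1) difference was 0.77. Olfm4 and Ltf had similar levels in APL#1, where the ratio of Olfm4 to Ltf was 0.942, and were far apart in APL#2, where it was 5.08.

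Pglyrp1 encodes a peptidoglycan recognition protein that kills bacteria. It stood at 35.9 FPKM in APL#1 and 33.4 FPKM in APL#2 (chromosome 7, 19470038 to 19475787), a difference of -0.10, and it lay 0.07 above the median difference of all genes, so its direction depends on the scaling. Mmp8, the neutrophil collagenase (chromosome 9, 7558428 to 7568486), was listed at 0.0156 and 0.0144 FPKM. On the depth estimate these values stood for about 1.94 fragments in each library, and a difference was not detectable at this depth. The 2 values stood in the ratio 1.08. That was also the commonest ratio among those close to 1 in the 3168 low genes, shared by 305 of them. It was taken as the ratio that equal fragment numbers give.

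**Figure D3:**
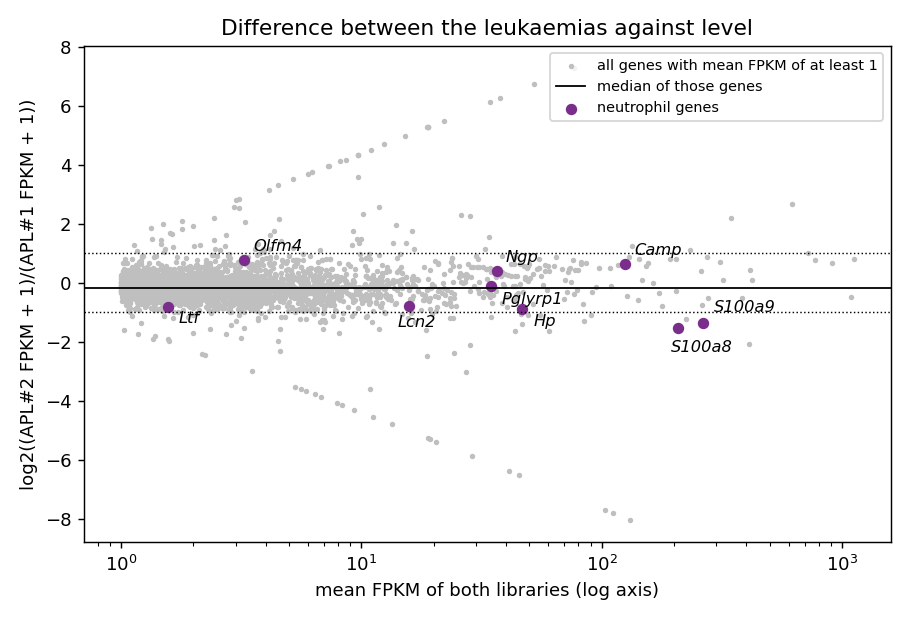
Difference between the leukaemias, log2((APL#2 FPKM + 1)/(APL#1 FPKM + 1)), against mean FPKM on a log axis; grey points are the 4100 genes with a mean of at least 1 FPKM, purple points the 9 members among them, the solid line the all-gene median of -0.17 and the dotted lines a 2-fold difference. S100a8 and S100a9 lie below the lower dotted line, and the other 7 members lie between the dotted lines.

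Against all genes, S100a8 and S100a9 were the members past a 2-fold difference on the log2(FPKM + 1) scale. That is 2 of 9 members at least 2-fold lower in APL#2, where 2.44% of the 4100 genes were, and 0 of 9 at least 2-fold higher, where 2.1% were. Among the 793 genes with a mean of at least 5 FPKM, 8.2% were at least 2-fold lower and 5.8% higher; 7 members were in that range, with the same pair lower. At 1.5-fold, 5 members were lower in APL#2 (S100a8, S100a9, Hp, Ltf and Lcn2), beside 10.1% of all 4100 genes, and 2 were higher (Olfm4 and Camp), beside 5.49%. Ngp and Pglyrp1 passed neither line. Ltf reached the mean of 1 FPKM through its level in APL#1.

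The median difference of all 4100 genes was -0.17, with an interquartile range of -0.37 to 0.04, so the libraries were not centred on each other. Relative to that median, S100a8 stood at -1.37, S100a9 at -1.18, Hp at -0.73, Ltf at -0.65, Lcn2 at -0.60, Pglyrp1 at 0.07, Ngp at 0.56, Camp at 0.81 and Olfm4 at 0.94. The median over the 9 members was 0.60 lower than that of all genes (log2 -0.60), a value that stands between members on both sides, with 5 below and 4 above the all-gene median. Since S100a8 and S100a9 share a locus, the same median without S100a9 was -0.27. As deposited, 86 of the 4100 genes were at least 2-fold higher and 100 lower. Scaling the libraries to equal upper quartiles gave 128 and 72 of 4087 genes. Scaling to a median ratio of 1 gave 150 and 70 of 4399, since scaling also changes which genes pass the filter. S100a8 and S100a9 remained at least 2-fold lower under both scalings.

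The authors' deposited table holds their own test of these libraries, which has no replicates behind it. In the authors' deposited table, p was 0.00453 for S100a8 and 0.00476 for S100a9, and these were the 2 of 9 members with p of at most 0.05, beside 1.56% of the 4100 genes. The q-values in the authors' deposited table were 0.886 and 0.910 for this pair and 1.00 to 3 digits for the other 8 members, so 0 of the 10 reached q of 0.05, as 0.0473% of the 23235 genes did. The ratio of the log2 fold to the test statistic in the authors' deposited table gives the standard error implied by their test. It was 0.55 for S100a8 around a plain log2 fold of -1.55, with a 95% interval of -2.62 to -0.48. For S100a9 it was 0.48 around -1.35, with an interval of -2.30 to -0.41. The corresponding interval included 0 for each other member, from -0.32 to 1.61 for Camp, from -1.89 to 0.05 for Hp, from -3.27 to 0.45 for Ltf and from -0.75 to 2.79 for Olfm4. Those errors rest on the authors' model of variability and are far wider than the counting errors above.

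The makeup of the set differed between the libraries. Summed over the 10 genes, the level was 938.7 FPKM in APL#1 and 530.0 FPKM in APL#2. S100a8 and S100a9 gave 73.3% of that sum in APL#1 and 47.8% in APL#2. Camp and Ngp gave 13.8% and 36.6%. Without the S100 pair, the other 8 genes summed to 250.9 FPKM in APL#1 and 276.5 FPKM in APL#2. That sum rested on Camp. With Camp left out too, the remaining genes summed to 153.4 FPKM in APL#1 and 124.0 FPKM in APL#2, lower in APL#2. The ratio of Camp to S100a8 was 0.316 in APL#1 and 1.45 in APL#2.

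In APL#1 the order of levels was S100a9, S100a8, Camp, Hp, Pglyrp1, Ngp, Lcn2, Ltf, Olfm4 and Mmp8. In APL#2 it was Camp, S100a9, S100a8, Ngp, Pglyrp1, Hp, Lcn2, Olfm4, Ltf and Mmp8. Camp and S100a9 were close at the top of APL#2 (152.5 and 148.1 FPKM), as were Pglyrp1 and Hp (33.4 and 32.3, with counting errors of 2.79% and 2.03%), and there is no replicate spread against which to judge these neighbours.

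**Figure D4:**
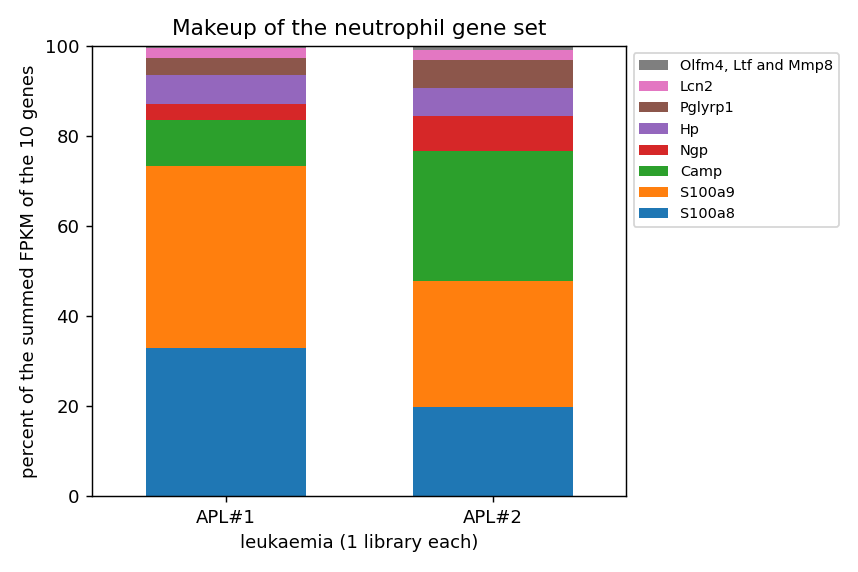
Stacked bars of each gene's percent of the summed FPKM of the 10 genes, for APL#1 and APL#2 with 1 library each. S100a8 and S100a9 fill 73.3% of the APL#1 bar and 47.8% of the APL#2 bar, and the Camp segment takes 10.4% and 28.8%.

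Primary granule genes, which precede these genes in development, were listed together with inhibitors of their proteins, and this list also went both ways. Of 15 listed genes 13 were in the table and 11 had a mean of at least 1 FPKM. Of these 11, 3 were at least 2-fold lower in APL#2, beside 2.44% of the 4100 genes, and 1 was at least 2-fold higher, beside 2.1%. Mpo stood at 661.8 and 157.3 FPKM, Elane, neutrophil elastase, at 32.4 and 5.01, and the serine protease gene Prss57 at 3.52 and 1.22. The 1 gene at least 2-fold higher was Slpi, which encodes an inhibitor of elastase, at 146.6 and 320.6 FPKM. Ctsg, cathepsin G, at 7.89 and 8.99 FPKM, and Ms4a3, at 7.85 and 15.9, leaned toward APL#2, and Srgn, the granule proteoglycan serglycin, stood at 47.6 and 53.3. Set beside Mpo in the same library, Camp was 0.147 times its level in APL#1 and 0.970 times in APL#2. S100a8 was 0.467 times the level of Mpo in APL#1 and 0.670 times in APL#2, and S100a9 0.572 and 0.942 times. Between the leukaemias the ratio to Mpo thus differed 6.58-fold for Camp, 1.43-fold for S100a8 and 1.65-fold for S100a9.

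A mixed list of gelatinase granule, surface and other neutrophil genes was mostly under 1 FPKM, with exceptions that are not all granule or surface genes. Mmp9 stood at 0.0894 FPKM in APL#1 and 0.0386 FPKM in APL#2. Of 34 listed genes, 32 were in the table and 9 had a mean of at least 1 FPKM. Of these 9, none was at least 2-fold higher in APL#2, beside 2.1% of the 4100 genes. At least 2-fold lower was 1, beside 2.44%. That 1 gene was 1100001G20Rik, at 24.3 and 9.11 FPKM. Chi3l3, a chitinase-like protein whose gene has close copies, stood at 37.6 and 32.3 FPKM. The integrin gene Itgb2 stood at 1.07 and 1.85 FPKM, the leukotriene B4 receptor gene Ltb4r1 at 1.28 and 1.99, Mgst1 at 3.26 and 4.72 and Ckap4 at 5.70 and 3.96. The list had 6 measured genes above the all-gene median and 3 below it.

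Of 19 listed transcription factors that act on granule genes, 18 were in the table and 11 had a mean of at least 1 FPKM. None of these 11 was past 2-fold on the log2(FPKM + 1) scale, beside 2.1% of the 4100 genes higher and 2.44% lower. Of the 11, 5 lay above and 6 below the all-gene median. The 7 under 1 FPKM in both libraries are not in this count, among them Satb1 at 0.311 and 0.0190 FPKM. Cebpe, which encodes C/EBP epsilon, stood at 8.20 FPKM in APL#1 and 7.40 FPKM in APL#2. Cebpa stood at 4.74 and 2.61 FPKM, Gfi1, a repressor needed for neutrophil development, at 5.99 and 3.49, and Cebpd, which shares its listed locus with 2310008H04Rik, at 2.60 and 1.505. Klf5 leaned the other way at 1.03 and 2.05 FPKM, as did Rara, the retinoic acid receptor in the fusion protein, at 7.20 and 8.65. Myb stood at 13.1 and 14.0 FPKM and Cux1, a repressor of late granule genes, at 10.6 and 7.53. Activity of these factors is not measured by their RNA.

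Receptors and partners of the secreted proteins were looked up as well. Of 13 listed S100 relatives and receptors, 9 had a mean of at least 1 FPKM. At least 2-fold higher in APL#2 were 2 (S100a4 and S100a6, above), beside 2.1% of the 4100 genes, and S100a4 was counted only through its level in APL#2. At least 2-fold lower were 0, beside 2.44%. Bsg, which encodes basigin, a receptor for S100A9, came close to that line at 16.9 and 7.96 FPKM, a log2 difference of -0.996. Tlr4, the receptor through which calprotectin signals, and Cd36 were listed at 0 in both libraries. From the same list, Cd33 stood at 2.20 and 2.54 FPKM and Cd69 at 4.92 and 5.16. Of 10 genes of iron and haemoglobin handling, 3 had a mean of at least 1 FPKM. Of these 3, 1 was at least 2-fold higher in APL#2, beside 2.1% of the 4100 genes, and 0 were at least 2-fold lower, beside 2.44%. The higher gene was Trf, transferrin, at 2.24 and 6.14 FPKM. The ferritin genes Fth1 and Ftl1 stood at 15.1 and 25.5 FPKM and at 86.6 and 66.5 FPKM. Of 14 genes of the signals that induce calprotectin, 6 had a mean of at least 1 FPKM. Of these 6, 0 passed 2-fold in either direction, beside the 2.1% higher and 2.44% lower of all 4100 genes, so the count is near that share. Their values included Stat3 at 1.44 and 1.46 FPKM, Hif1a at 1.61 and 1.77, Nfkb1 at 1.64 and 1.43, Rela at 1.15 and 1.65, Nfkbiz at 1.95 and 1.27 and Myd88 at 1.41 and 0.808.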

How the data were processed

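RNA was sequenced in 2 libraries, 1 from each leukaemia. The authors deposited a single table of genes. TopHat2 2.0.10, Cufflinks and Cuffdiff, and the build mm9, are listed in the submitters' processing notes, which say nothing of how each was used. Its value columns were read as FPKM from the layout of the deposited table, since the header names no unit. It also holds the authors' test statistic, a score, and their p-value and q-value, per the file headers. Not given in the sources used here: annotation, strand and scaling option.

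Differences were computed here as log2((APL#2 + 1)/(APL#1 + 1)) with a pseudocount of 1 FPKM, in Python 3.11.15 with pandas 2.3.3, over genes with a mean of at least 1 FPKM. No test was run, because there is 1 library per leukaemia. Calls and the depth estimate were checked on simulated data with counting noise only. Depth per fragment came from low genes with equal fragment numbers, with GENCODE M21 transcript lengths and no allowance for fragment length, so fragment numbers are approximate, more so for short transcripts.

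The 10 members and the gene lists were chosen with earlier results of these data known. All members are described. Of each list of related genes, up to 3 genes with the largest difference toward each leukaemia and up to 3 with the highest mean are named, with Mpo, Elane, Cebpe, Cebpa and Gfi1. Some further genes are named beside them. Lists of cell type markers served as a check and are given by counts, sums and single genes. The alternatives were other pseudocounts, scalings, filters, thresholds and backgrounds.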

Additional observations from a re-analysis of the deposited data

How the results depend on the processing

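Over 50 recomputed differences of the 10 genes (2 other pseudocounts and 3 other scalings), 43 kept their direction and their side of 2-fold. S100a8 stayed between -1.55 and -1.28 and S100a9 between -1.35 and -1.09. Ltf passed 2-fold with a pseudocount of 0.1 (-1.31) and with none (-1.41), and Olfm4 with none (1.02), by the construction of the pseudocount. Pglyrp1 turned to 0.11 under upper quartile scaling and 0.15 under median ratio scaling, and Mmp8 to 0.00154 and 0.00238, since both scalings raise APL#2. The members at least 2-fold higher went from 0 to 1 with no pseudocount and to 2 at 1.5-fold. Those lower went from 2 to 3 with a pseudocount of 0.1 or none and to 5 at 1.5-fold. The background moved as well. Genes lower went from 100 of 4100 to 252 of 4100 with a pseudocount of 0.1, 256 of 4050 with none and 416 of 4100 at 1.5-fold. Genes higher went from 86 to 132, 113 and 225 in the same order. The median of the members relative to all genes moved from -0.60 to -0.27 without S100a9. No paired analysis was possible because each leukaemia has 1 library. No replicate could be left out, and depth limits Mmp8 most.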

Other observations

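Genes next to the members were looked at for values not described above, and those named here were chosen after their values were seen. Ccrl2, a chemerin receptor gene that starts 35.5 kb from Ltf, stood at 0.651 FPKM in APL#1 and 0.238 FPKM in APL#2, a ratio of 2.74 beside the 2.66 of Ltf. 3000002C10Rik, which starts 17.2 kb from Camp, stood at 2.38 and 4.28 FPKM, a ratio of 1.80 toward APL#2 beside the 1.56 of Camp. Nme6, which lies between 3000002C10Rik and Camp, stood at 1.64 and 1.22 FPKM and did not share that direction. 1110008P14Rik, which starts 5.54 kb from Lcn2, stood at 1.58 and 0.856 FPKM, a ratio of 1.85 toward APL#1 beside the 1.77 of Lcn2. Other neighbours went against their member: Ciz1, near Lcn2, stood at 3.70 and 4.12 FPKM, and Lrrfip2, near Ltf, at 0.904 and 1.34. With 1 library per leukaemia these are values of single libraries.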
